A study of Mus musculus with 2 samples.

Results

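Barrier fibroblast nuclei of the mouse vagus nerve ganglia were taken as the nuclei with at least 4 summed UMIs of *Slc6a20a*, *Ranbp3l*, *Slc6a13*, *Slc13a3* and *Atp13a5*, and with at least 15 of these UMIs per 10000 UMIs of the nucleus. A UMI, or unique molecular identifier, stands for 1 captured RNA molecule. Of 8714 nuclei, 587 met the rule: 259 of 3791 in the female library (6.83%, 95% exact binomial interval 6.05 to 7.68) and 328 of 4923 in the male library (6.66%, 5.98 to 7.40). These intervals count nuclei, and with 1 library per sex they are no test between the sexes. Without the members that also met the rule of another class the shares were 4.51% (167 of 3699, 3.87 to 5.23) and 3.12% (148 of 4743, 2.64 to 3.66). The neuron rule was met by 37 female and 131 male members. With members that met only the neuron or sheath fibroblast rule kept, the shares were 6.01% and 6.11%, a setting chosen after seeing the data. Among nuclei over 2000 UMIs the shares were 9.14% and 7.55%. The members held 1042478 of 17435300 UMIs in the female library and 1060012 of 27529730 in the male library. Their median depth was 3148 UMIs and 1837 genes in females, and 2708.5 UMIs and 1742.5 genes in males.

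The study sequenced RNA of single nuclei from vagus nerve ganglia of C57BL/6J mice of the genotype Rosa26-floxed-STOP-Cas9-eGFP (Rosa26-eGFPf), an allele that needs Cre to be expressed, on standard chow. All animals, of either sex, had been given AAVrg-Cre into the liver 4 weeks before, so no group lacked the virus. The female library pooled 14 ganglia of 7 mice and the male library 16 ganglia of 8 mice, bought at 8 to 9 weeks of age. With 1 library per sex there is no replicate, and no test between the sexes was possible. Comparisons within each library are given without a test too, and all intervals given here are 95% intervals that cover counting error only. The retrograde virus is meant to reach neurons that project to the liver, and of *EGFP* no UMI was found in the members and 1 in all other nuclei. Values below are given as female and then male.

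The nerve and the ganglion are wrapped in layers of fibroblasts and of flat, tightly joined cells, and where cranial nerve roots leave the skull these layers continue into the pia and arachnoid of the brain. Leptomeningeal fibroblasts are known for carriers of amino acids, organic anions and ions, for making retinoic acid, and for secreting prostaglandin D synthase into the fluid around the brain. The cells of the arachnoid barrier, one layer of these, also carry tight junctions, efflux pumps and E-cadherin.

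The members had 15.2 to 231 marker UMIs per 10000 (median 54.8), and a median of 16 marker UMIs. Just inside the limits, 20 members had exactly 4 marker UMIs, at a median of 19.4 per 10000. Just outside, 23 nuclei had 3 marker UMIs at a median of 20.2 per 10000, and 87 nuclei had 4 or more but at most 14.9 per 10000. Those 87 nuclei had a median of 8990 UMIs, so they were deep nuclei with a low marker rate. Of the 587 members, 483 had UMIs of 3 or more of the 5 genes and 26 had UMIs of 1 gene only. Of 8 barcode sequences that occurred in both libraries, none was that of a member.

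Genes known from other cell types were also found in the members. By rules of the same form, but with no limit on the rate for sheath fibroblasts, 272 members (92 female, 180 male) also met the rule of at least 1 other class, of 11 classes tried. These were mostly neurons (37 female and 131 male members) and sheath fibroblasts (92 members), then Schwann cells (34), endothelial cells (12), satellite glia (11), macrophages (3), epithelium (3) and mural cells (2). With the limit of 15 per 10000 also set for the sheath rule, 41 members met it, and 240 (77 female, 163 male) met the rule of at least 1 other class. The summed neuron list (*Snap25*, *Syt1*, *Rbfox3*, *Nefl*, *Nefm*) had 10.4 UMIs per 10000 in female and 14.1 in male members, against 34.2 and 35.4 in neurons and 12 and 16.8 in endothelial nuclei. Its most abundant gene in members was *Snap25* in females (307 UMIs) and *Nefl* in males (553 UMIs). The Schwann cell list had 7.89 and 5.49, against 70.0 and 69.8 in Schwann cells, 5.61 and 9.88 in endothelial nuclei and 5.47 and 12.9 in macrophages. In the male library both lists were lower in members than in endothelial nuclei. The endothelial list had 2.87 and 2.93, with *Flt1* its most abundant gene (223 and 226 UMIs). *Pecam1*, the defining adhesion molecule of endothelium, was at 0.288 and 0.132 against 10.4 and 5.52 in endothelial nuclei. The macrophage list had 1.19 and 0.50, the satellite glia list 3.30 and 4.42, the mural list 0.883 and 0.443 and the adipocyte list 0.614 and 0.208. The list of cerebellar granule cells had 0.652 and 0.0849, and the choroid plexus list 0.0576 and 0.123, with *Folr1* at 0 in both libraries and *Clic6* at 0 in the female one. Of the epithelial and mesothelial list (1.22 and 1.23), *Cdh1* gave 118 of 127 and 124 of 130 UMIs, and *Krt8*, *Krt18* and *Upk3b* were at 0. The part of these RNAs in the results below was not tested, and the effect of leaving out members that met another rule on the counts is given with the other settings.

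The 5 genes of the rule were high in members by construction. They encode carriers and pumps, namely the imino acid transporter *Slc6a20a*, the GABA and taurine transporter *Slc6a13*, the dicarboxylate transporter *Slc13a3* and the P5-type ATPase *Atp13a5*, and the Ran-binding protein *Ranbp3l*. To see whether they went together, each gene was read in nuclei chosen by the other 4 at the same limits. *Ranbp3l* then had 34.9 UMIs per 10000 in 197 female nuclei and 33.9 in 233 male nuclei, against 0.534 and 0.404 in the remaining nuclei. *Slc6a20a* had 19.7 and 17.5 against 0.285 and 0.187. *Atp13a5* had 7.02 and 6.88 against 0.0887 and 0.0419, but only 50.8% and 49.5% of the chosen nuclei held a UMI of it. *Slc6a13* had 5.41 and 4.12 against 0.136 and 0.0822, and *Slc13a3* had 2.77 and 2.10 against 0.0530 and 0.0359. Each of the 5 genes was therefore 39.7 to 164 times higher in nuclei that it had not helped to choose. Since the 5 genes were picked as a group with earlier results of these data known, this is a description and no independent check.

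The 150 bases upstream of 3 of the marker genes are shown here, since these genes choose the members: *Slc6a20a* and *Slc6a13*, transporters of the same family, and *Ranbp3l*, the marker with the most UMIs. They are RefSeq sequences of GRCm38.p6, written 5′ to 3′ on the strand of the gene and ending at the base before its first transcribed base, with GC boxes (GGGCGG or its reverse complement CCGCCC) in capitals.
Slc6a20a, chr9:123678886-123679035, minus strand: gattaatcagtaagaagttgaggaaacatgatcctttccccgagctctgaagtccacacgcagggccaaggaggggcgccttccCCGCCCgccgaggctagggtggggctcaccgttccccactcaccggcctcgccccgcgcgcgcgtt
Slc6a13, chr6:121300077-121300226, plus strand: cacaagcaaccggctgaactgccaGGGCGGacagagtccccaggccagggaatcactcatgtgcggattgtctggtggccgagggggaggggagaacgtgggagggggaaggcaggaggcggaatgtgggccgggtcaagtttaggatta
Ranbp3l, chr15:8967799-8967948, plus strand: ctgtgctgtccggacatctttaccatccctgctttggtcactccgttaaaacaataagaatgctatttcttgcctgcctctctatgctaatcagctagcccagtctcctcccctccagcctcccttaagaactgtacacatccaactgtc
The genes lie at chr9:123634770-123678885 (*Slc6a20a*), chr6:121300227-121337733 (*Slc6a13*) and chr15:8967949-9067335 (*Ranbp3l*), and *Slc6a13* has 3 annotated starts, of which the first was used. The letters of 5 motifs were searched on both strands: the letters TATAAA for the first, a core promoter box, then CCAAT as the second, then the GC box given above, then GTAAACA as a forkhead core, and last CAGCAGG as a ZIC core. *Slc6a20a* and *Slc6a13* held 1 GC box each, *Slc13a3* held 2, and none of the letters was found for *Ranbp3l* and *Atp13a5*. Of 32817 windows of the same length, 28.6% held a GC box, 24.5% the second motif, 7.58% the first, 5.32% the ZIC core and 1.80% the forkhead core. The GC content was 64.7% for *Slc6a20a*, 62.7% for *Slc6a13* and 48.7% for *Ranbp3l*, and the median over all windows was 54%.

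The members were next compared with all other nuclei of the same library. A level is the number of UMIs of a gene per 10000 UMIs of the class. A gene was called higher or lower where its level differed 4-fold or more in the same direction in each library, at least 10 UMIs in the members of each library being required for higher and 3 UMIs being taken for any smaller sum. Of 14615 genes with 50 or more UMIs in each library, 315 were called higher (2.16%) and 296 lower (2.03%). The median log2 ratio over all genes tested, as the mean of both libraries, was -0.02.

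*Trpm3*, a calcium-permeable channel of the TRP family, had a level of 263 (260 to 266) in female and 234 (231 to 237) in male members, against 11 and 7.99 in all other nuclei, a ratio of 24.0 and 29.2. *Ptgds*, the prostaglandin D synthase secreted by the meninges, had 58.7 (57.3 to 60.2) and 62.9 (61.4 to 64.4) against 3.62 and 2.38. For both genes the members of both libraries were far above the other nuclei, and the highest *Ptgds* level of the other classes was 7.49, in female Schwann cells. *Slc7a11*, the cystine and glutamate exchanger, had 12 (11.3 to 12.6) and 10.7 (10.0 to 11.3) against 0.295 and 0.201. At least 1 UMI of it was found in 77.6% of female and 68.3% of male members, against 6.64% and 5.49% of neurons, which are known to express little of it, at median depths of 3148, 2708.5, 3311 and 3297 UMIs. With each nucleus thinned to 1000 UMIs these shares were 52.9%, 49.1%, 1.70% and 1.89%. *Serpina1b*, a serine protease inhibitor, had the highest mean ratio of all genes tested, log2 8.09 (6.46 to 10.4) in females and 8.13 (6.82 to 9.81) in males, with 0.499 and 0.528 against 0.00183 and 0.00189 in all other nuclei, but it is one of several near-identical copies and its reads may be split among them. The remaining genes with the highest ratios were *Aldh1a2*, *Slc22a8*, *Slc22a6*, *Slc22a2*, *Crocc2*, *Slc38a3*, *Slc6a12*, *Osr1*, *Col22a1*, *Gjb6*, *Mro*, *Slc30a10*, *Slc13a4*, *Nadk2*, *Aebp1*, *Fmod* and the unnamed transcripts *Gm40604*, *Gm47712*, *Gm27151*, *AU023762*, *Gm33906* and *Gm6209*.

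**Figure D1:**
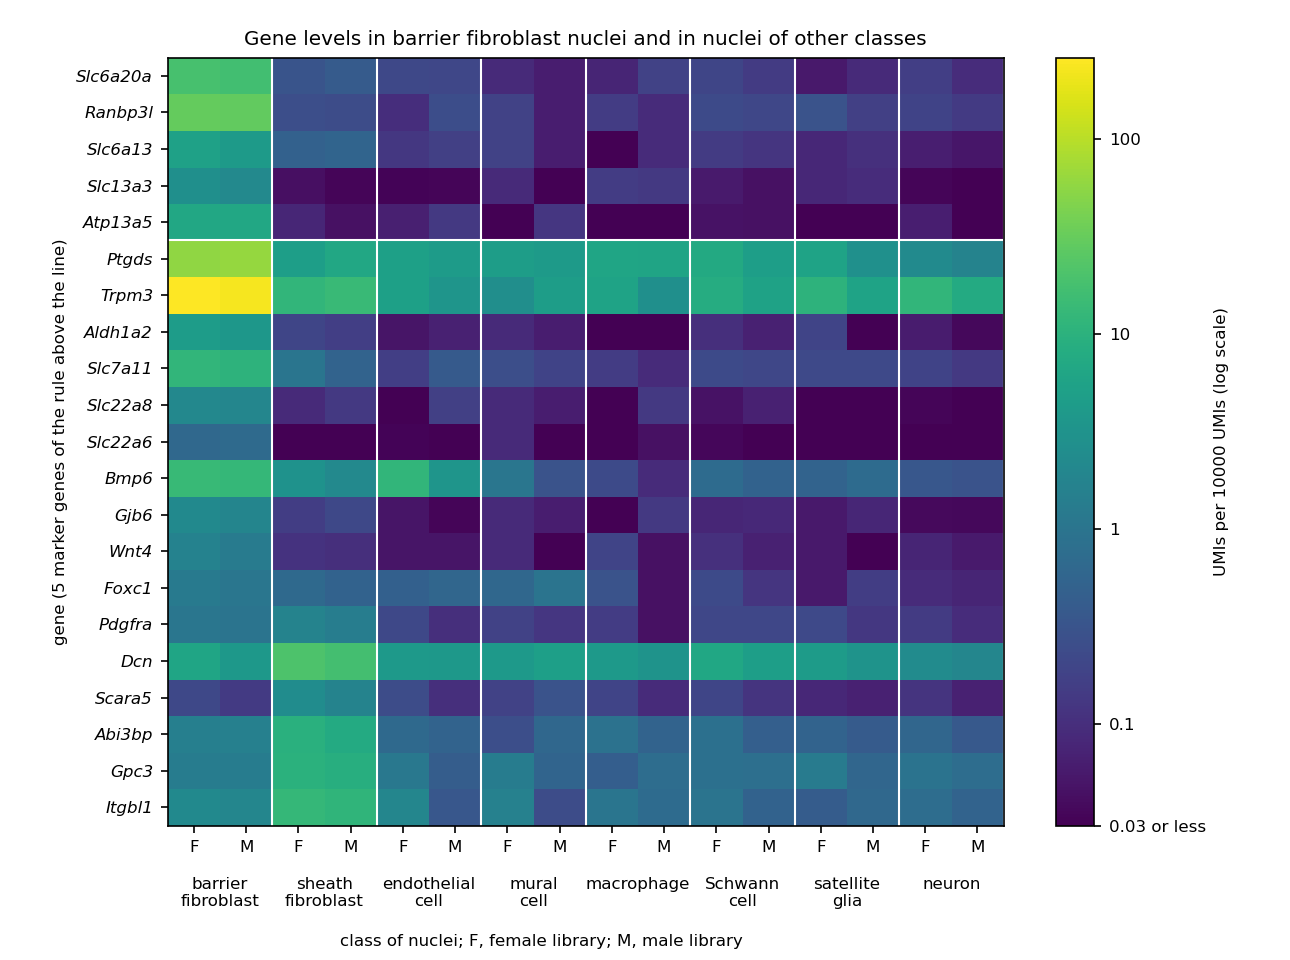
Level of selected genes (rows; the 5 genes of the rule above the line) in barrier fibroblast nuclei and in nuclei of other classes (sheath fibroblasts with 15 or more sheath marker UMIs per 10000), each in the female (F) and male (M) library; colour gives UMIs per 10000 UMIs on a log scale. *Trpm3*, at 263 and 234, and *Ptgds*, at 58.7 and 62.9, had the highest levels in members, and *Bmp6* was also high in female endothelial nuclei (11.7).

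The members were set beside lists of fibroblast types, which were chosen with earlier results of these data known and are no independent check of the label. Of 36 leptomeningeal fibroblast genes, which do not include the 5 markers, 19 were called higher (52.8%) and none lower, with a median log2 ratio of 2.62. Among them were *Igf2* (2.05 and 2.21 against 0.123 and 0.0910), the zinc finger factors *Zic1*, *Zic2* and *Zic4*, the forkhead factors *Foxc1* and *Foxc2*, and the ferroxidase *Cp* (7.42 and 6.38 against 1.26 and 0.839). *Slc47a1* and *Slc4a10*, of the same list, were not called, with 1.54 and 1.0 against 1.48 and 1.08 for *Slc47a1*. Of 18 perineurial genes tested 4 were called higher, namely *Slc1a3*, *Mpzl2*, *Crabp2* and *Lypd2*. Of 13 epineurial genes 1 was called higher (*Dpp4*), of 12 general fibroblast genes 2 (*Fn1* and *Fbln1*), and of 9 endoneurial genes none. *Pdgfra*, a receptor that marks fibroblasts, had 1.05 and 0.972 in members against 0.277 and 0.149 in all other nuclei. The perineurial barrier genes *Cldn1* (0.201 and 0.179 against 0.178 and 0.116) and *Itgb4* (0.451 and 0.179 against 0.537 and 0.270) were less than 2-fold away from the other nuclei.

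**Figure D2:**
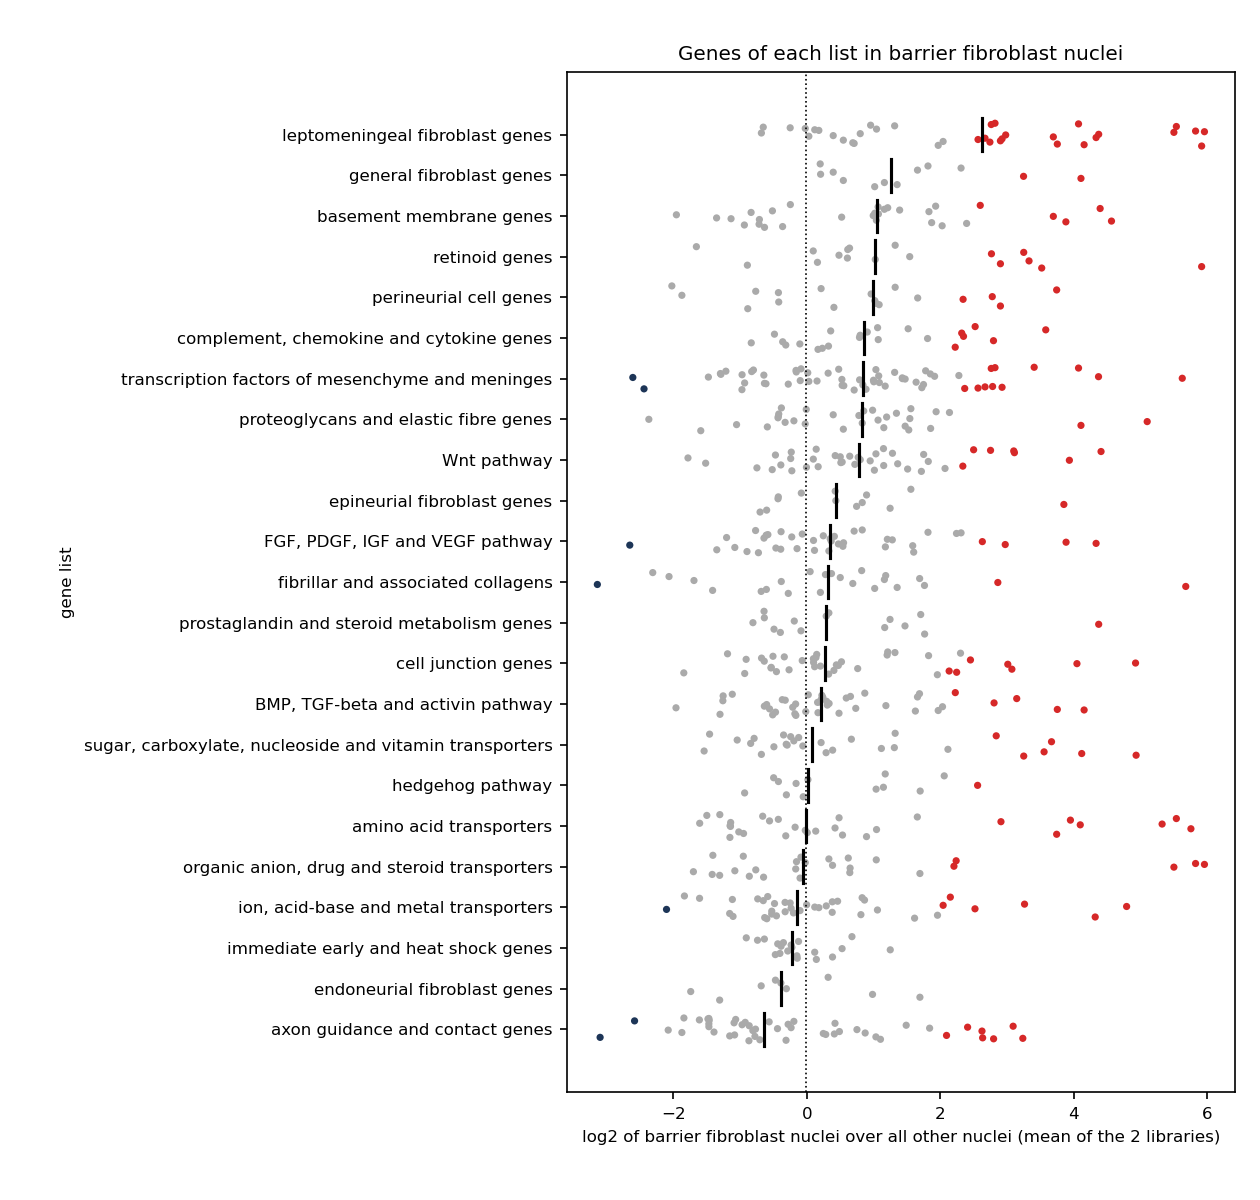
Log2 ratio of barrier fibroblast nuclei over all other nuclei (x axis, mean of both libraries) for each tested gene (points) of each list of fibroblast, pathway or transporter genes (y axis; marker lists of other cell types not drawn), with genes called higher in red, lower in dark blue and the list median as a bar. Among the lists drawn the leptomeningeal median lay farthest to the right, at 2.62, and that of the axon guidance genes farthest to the left, at -0.63, where all 14615 genes tested had -0.02.

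Carriers of small molecules were called higher in each of the 4 lists of transporters. Of 30 amino acid transporters 15 lay above 0, so the middle of the list did not lean either way (median -0.01). Among the 30, none was lower and 7 were higher (23.3%, against 2.16% of all genes tested). They held *Slc7a11*, the glutamate transporter *Slc1a3* (5.04 and 4.22 against 0.533 and 0.223), the betaine transporter *Slc6a12* (1.49 and 1.04 against 0.0323 and 0.0298), the glycine transporter *Slc6a9* (0.892 and 0.528 against 0.0451 and 0.0438), the glutamine transporter *Slc38a3* (0.633 and 0.623 against 0.0171 and 0.00793) and *Slc6a20b*. *Slc6a20b* is a near copy of the marker *Slc6a20a*, so that its value (1.06 and 0.830) is uncertain. Of 26 carriers of organic anions, drugs and steroids 5 were higher. The organic anion transporter *Slc22a8* had 2.09 (1.82 to 2.39) and 1.92 (1.67 to 2.21) against 0.0421 and 0.0298, and its relative *Slc22a6* had 0.652 and 0.689 against 0.0140 and 0.00831. The organic cation transporter *Slc22a2* had 0.432 and 0.349 against 0.00976 and 0.00756, the orphan carrier *Slc22a23* had 3.86 and 3.41 against 0.897 and 0.691, and the anion transporter *Slco1a4* had 1.40 and 1.18 against 0.295 and 0.252. The efflux pumps of barriers were not called: *Abcg2* had 1.07 and 1.32 against 0.778 and 0.743, and *Abcb1a* had 0.921 and 1.37 against 0.700 and 0.738.

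Of 28 carriers of sugars, carboxylates, nucleosides and vitamins, 6 were higher. They were the sulphate transporter *Slc13a4* (3.37 and 2.96 against 0.132 and 0.0808), the monocarboxylate carriers *Slc16a12* (2.13 and 1.68 against 0.104 and 0.114) and *Slc16a6*, the sugar transporter *Slc2a12*, the iodide transporter *Slc5a5* and the retinol carrier protein *Rbp4*. The glucose transporter of brain endothelium, *Slc2a1*, was at 0.317 and 0.274 in members and at 1.19 and 2.94 in endothelial nuclei. Of 40 ion and metal transporters 6 were higher and 1 lower. Those called higher held the sodium-calcium exchanger *Slc24a3* (10.3 and 8.41 against 1.98 and 1.34), the magnesium transporter *Slc41a1*, the sodium-proton exchanger *Slc9a2*, and the manganese and zinc carriers *Slc30a10* and *Slc39a8*. The one called lower was the exchanger *Slc24a2* (0.384 and 0.349 against 1.58 and 1.57).

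Of 17 retinoid genes tested, 6 were called higher and 15 lay above 0 (median log2 ratio 1.02). *Aldh1a2*, which makes retinoic acid, had 4.5 (4.10 to 4.93) and 3.62 (3.27 to 4.0) against 0.0842 and 0.0533, and *Aldh1a1*, of the same family, had 2.46 and 2.19 against 0.237 and 0.173. *Cyp26b1*, which breaks retinoic acid down, had 0.576 and 0.604 against 0.0543 and 0.0635. The binding proteins *Rbp4* and *Crabp2* were called too. Both the synthesis and the breakdown arm of the pathway were therefore among the genes called. Of 15 genes of prostaglandin and steroid metabolism only *Ptgds* was called.

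Of 30 basement membrane genes 5 were higher, namely the collagen IV chains *Col4a5* (2.32 and 1.86 against 0.168 and 0.119) and *Col4a6* (1.18 and 1.07 against 0.0567 and 0.0397), the laminins *Lama1* (0.643 and 0.717 against 0.0580 and 0.0476) and *Lamc3* (0.700 and 0.660 against 0.0390 and 0.0268), and *Smoc1*. Of 24 other collagens 2 were higher (*Col22a1* and *Col26a1*) and 1 lower (*Col24a1*), and the fibrillar chain *Col1a2* was not called (2.93 and 2.58 against 1.32 and 0.873). Of 31 proteoglycan and elastic fibre genes 2 were higher (*Fbln1* and *Fmod*). Of 38 junction genes 7 were higher. These were the gap junction genes *Gjb6* (2.26 and 1.87 against 0.0732 and 0.0627), *Gjb2* (0.489 and 0.481 against 0.0293 and 0.0295) and *Gja1* (1.28 and 1.08 against 0.178 and 0.120), and the tight junction genes *Cgnl1*, *Cldn11* and *Lsr*. The seventh, *Cdh5* or VE-cadherin, is better known from endothelium: it had 1.13 and 0.868 in members, 1.99 and 1.83 in endothelial nuclei and 0.261 and 0.168 in all nuclei other than members. *Cdh1*, or E-cadherin, had 1.13 and 1.17 in members against 0.892 and 0.944 and was not called.

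Secreted ligands were among the calls in the BMP, Wnt and IGF pathways. Of 43 BMP, TGF-beta and activin genes 5 were higher, among them the ligands *Bmp6* (13.7 and 12.9 against 1.12 and 0.499) and *Bmp7* (1.39 and 1.09 against 0.122 and 0.0688), the co-receptor *Tgfbr3* (9.05 and 7.04 against 2.15 and 1.36) and the transducer *Smad3*. *Bmp6* was also abundant in endothelial nuclei of the female library (11.7, against 3.41 in the male library). Of 40 Wnt genes 7 were higher (median log2 ratio 0.78). They were the ligands *Wnt4* (1.70 and 1.33 against 0.0805 and 0.0623), *Wnt5a*, *Wnt5b*, *Wnt6* and *Wnt16*, the receptor *Fzd6* and the receptor-degrading ligase *Rnf43* (0.624 and 0.547 against 0.0445 and 0.0329). Of 40 genes of the FGF, PDGF, IGF and VEGF pathways the 4 called higher were all of the IGF branch: *Igf1*, *Igf2*, *Igfbp2* and *Igfbp3*, and *Hgf* was lower. Of 13 hedgehog genes 1 was higher (*Gli3*, a transcription factor of the pathway).

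Of 59 transcription factors of mesenchyme and meninges, 11 were higher and 2 lower (*Ebf3* and *Pparg*). Beside *Zic1*, *Zic2*, *Zic4*, *Zic5*, *Foxc1*, *Foxc2* and *Foxd1*, they held *Prdm6* (5.65 and 4.75 against 0.317 and 0.198), *Osr1* (1.05 and 0.830 against 0.0305 and 0.0117), *Eya1* (11.3 and 9.89 against 1.76 and 2.38) and *Eya2*. Of 22 complement, chemokine and cytokine genes 6 were higher, among them complement *C2*, the leptin receptor *Lepr* (2.43 and 2.32 against 0.302 and 0.131), the cytokines *Il34* and *Il18* and the decoy receptor *Tnfrsf11b*. Of 48 axon guidance genes 7 were higher and 2 lower (*Sema6d* and *Epha5*), with a median of -0.63. The 7 were the Slit receptor *Robo1* (15.2 and 13.5 against 2.17 and 3.37), the plexin *Plxna2* (9.84 and 8.42 against 1.57 and 1.39), *Flrt2*, *Epha3*, *Epha4*, *Efnb2* and the repellent ligand *Sema3a*. Of 20 immediate early and heat shock genes none was called in either direction, with a median of -0.23 and 6 of 20 above 0, where 2.16% of all genes tested were called higher and 2.03% lower.

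In order of their UMIs in female members, the first of the 296 genes called lower were *Meg3*, *Csmd1*, *Cntnap2*, *Ctnna2*, *Ank3* and *Astn2*. None of the 5 genes of the neuron list was called lower, with a median log2 ratio of -1.20. Neurons made up much of the nuclei other than members, with 1355 of 3532 in the female and 2912 of 4595 in the male library, and 9893 of the 14615 genes were abundant enough to be called lower at all.

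The members were then compared with sheath fibroblasts, the other main fibroblast class, chosen by 4 or more summed UMIs of *Scara5*, *Abi3bp*, *Gpc3* and *Itgbl1*. This rule has no limit on the rate. With the 92 members that also met it left out, the class held 1116 nuclei (558 per library), of which 516 met the neuron rule, and 244 nuclei of over 10000 UMIs held 72.2% of the UMIs of the class. Against it 277 of 13552 genes were higher (2.04%) and 299 lower (2.21%), and *Lingo2*, *Grik1* and *Kctd16* were among the 12 with the lowest ratios. The same comparison was also made with the 730 sheath fibroblast nuclei (390 female, 340 male) that also had 15 such UMIs per 10000, in which deep nuclei held 9.04% of UMIs. Of 10334 genes 156 were then higher (1.51%) and 83 lower (0.803%), with a median log2 ratio of -0.05. The genes called higher against the full and the limited sheath class had 138 in common (49.8% of the 277 and 88.5% of the 156), whereas those called lower had 10 in common (3.34% of the 299 and 12% of the 83). The values below are against the limited class. Of the 15 genes highest against the full class, those not yet named were the retinal lipid transporter *Abca4* (0.806 and 0.708 in members against 0.0349 and 0.0455), *Aspg*, the collagen *Col13a1* and *H2-Q1*, whose reads near-identical genes of its family may share.

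A minority of the carriers were called higher than in sheath fibroblasts. Against the limited sheath class, 6 of 28 amino acid, 7 of 22 sugar, carboxylate and vitamin, 5 of 21 organic anion and 3 of 36 ion transporters were higher, and 2 organic anion transporters were lower. Their median log2 ratios were -0.02, -0.04, -0.64 and -0.18, where all genes tested had -0.05. Of all genes tested, 1.51% were higher and 0.803% lower. *Slc16a12* had 2.13 and 1.68 in members against 0.0524 and 0.0455 in sheath nuclei. *Slc22a8* had 2.09 and 1.92 against 0.0873 and 0.136. The folate and thiamine carriers *Slc19a1* (0.384 and 0.415 against 0.0873 and 0.102) and *Slc19a2* (0.163 and 0.208 against 0.0349 and 0.0227) were called here and not against all other nuclei. In the other direction the lipid transporters *Abca6* (0.297 and 0.377 against 4.43 and 3.74) and *Abca8a* (1.14 and 1.18 against 7.80 and 6.31) were lower. *Slc47a1*, an exporter of cations, had 1.54 and 1.0 in members against 4.5 and 3.60 in sheath nuclei and was not called.

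**Figure D3:**
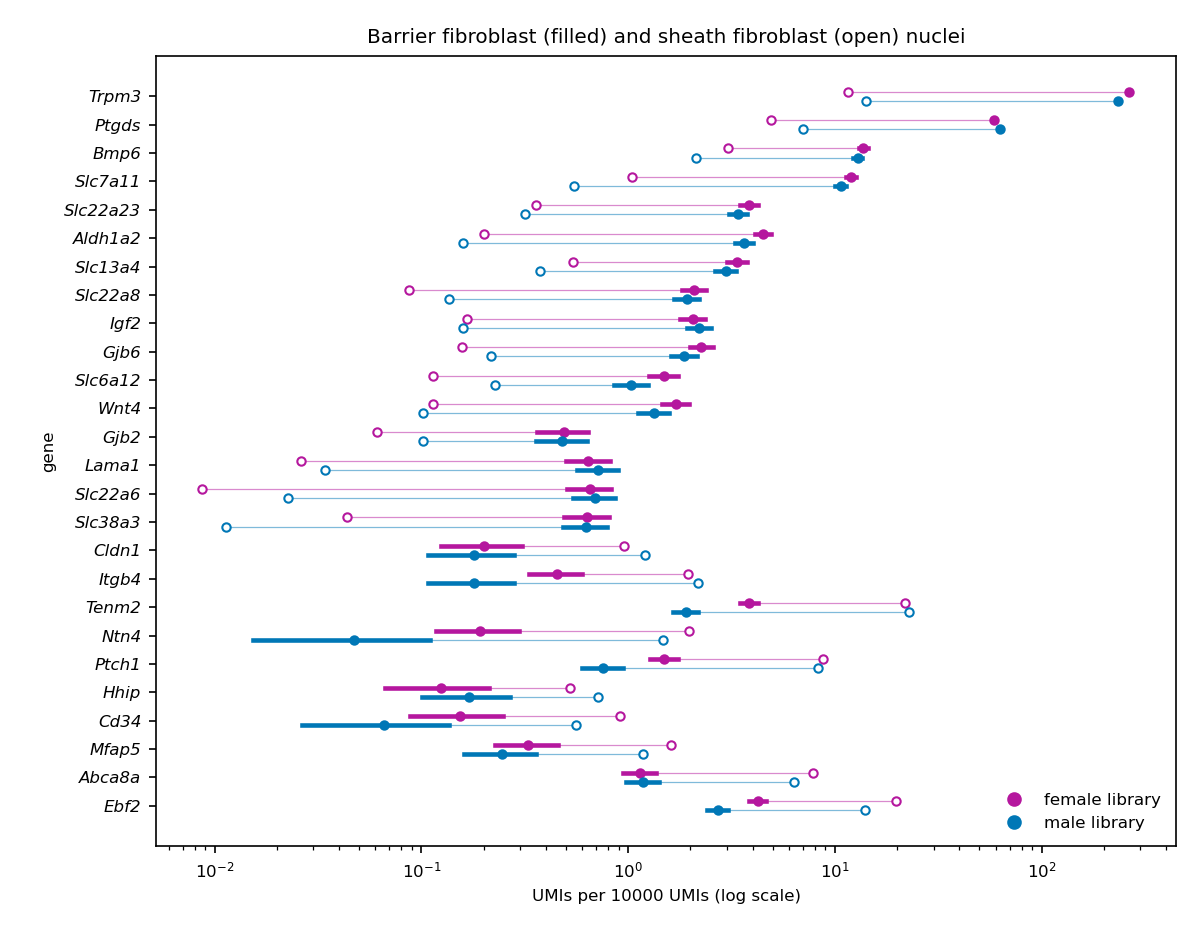
Levels (x axis, UMIs per 10000 UMIs, log scale) of selected genes (y axis) in barrier fibroblast nuclei (filled points) and in sheath fibroblast nuclei with 15 or more sheath marker UMIs per 10000 (open points) in each library; thick bars are 95% counting intervals of the members. Filled and open points of a gene stood far apart at *Slc22a8* (2.09 and 1.92 against 0.0873 and 0.136), and the order was turned at *Ptch1* (1.5 and 0.755 against 8.77 and 8.28).

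Of 35 leptomeningeal genes 11 were higher than in the limited sheath class and none lower (median log2 ratio 0.38). *Ptgds* had 58.7 and 62.9 against 4.91 and 7.0, *Aldh1a2* 4.5 and 3.62 against 0.201 and 0.159, *Bmp6* 13.7 and 12.9 against 3.06 and 2.14, and the imprinted gene *Nnat* 5.43 and 4.91 against 0.524 and 0.694. *Lama1* (0.643 and 0.717 against 0.0262 and 0.0341) and *Lamc3* (0.700 and 0.660 against 0.0262 and 0.0227) were higher, whereas *Smoc2* (0.652 and 0.358 against 3.86 and 3.67) and *Col15a1* (0.336 and 0.198 against 2.61 and 2.15) were lower. In all 3 of 25 basement membrane genes were higher and 2 lower, with a median of -0.13. None of 12 general fibroblast genes was called, and *Dcn*, the abundant proteoglycan of connective tissue, had 6.19 and 3.74 against 20.9 and 17.4. *Pdgfra* had 1.05 and 0.972 against 1.73 and 1.39.

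In the lists of nerve fibroblast types and of the hedgehog pathway no gene was called higher than in the limited sheath class. Of 16 perineurial genes 6 were lower (median log2 ratio -1.39), of 9 endoneurial genes 1 (-1.50) and of 9 epineurial genes 2 (-1.17). Against the full sheath class 2 of 18 perineurial genes were higher and 1 lower, with a median of 0.09, 1 of 12 epineurial genes was higher (0.13) and none of 10 endoneurial genes was called (-0.66). The 6 perineurial genes lower than in the limited class were *Tenm2* (3.85 and 1.90 against 21.7 and 22.9), *Ptch1*, *Adamtsl3*, the integrin *Itgb4* (0.451 and 0.179 against 1.96 and 2.18), the claudin *Cldn1* (0.201 and 0.179 against 0.960 and 1.21) and the netrin *Ntn4* (0.192 and 0.0472 against 1.97 and 1.47). Of 11 hedgehog genes 3 were lower (median -1.41), whereas none of 13 was called against the full class (-0.22). Among the 3 were the receptor *Ptch1* (1.5 and 0.755 against 8.77 and 8.28) and the antagonist *Hhip*, both of which are themselves targets of the pathway. *Ptch1* stands in the perineurial and in the hedgehog list. Of 18 complement, chemokine and cytokine genes none was higher and 2 were lower, the alarmin *Il33* and the chemokine *Ccl11*, so that none of the 6 genes of this list called higher against all other nuclei was called higher here. *Lepr* had 2.43 and 2.32 against 1.68 and 0.921, and *Il34*, with a ratio of 4.04 and 3.70, lay close to the threshold. Of 35 BMP, TGF-beta and activin genes 1 was higher and 2 lower, of 30 cell junction genes 2 and 1, of 33 FGF, PDGF, IGF and VEGF genes 3 and 2, of 38 axon guidance genes 3 and 3, and of 32 Wnt genes 3 and none. The BMP receptor *Bmpr1b* (0.106 and 0.132 against 1.76 and 1.60) and the growth factor *Fgf7* (0.144 and 0.0755 against 0.585 and 0.557) were among those lower. Of 48 transcription factors *Prdm6*, *Zic2*, *Osr1* and *Eya4* were higher, and *Ebf2* (4.25 and 2.71 against 19.8 and 14.0) and *Meox2* were lower. *Aldh1a3*, which also makes retinoic acid, was lower (0.0671 and 0.0755 against 0.358 and 0.318), so that the retinoid list held calls in both directions. The VEGF receptor *Flt1* and the anion transporter *Slco1a4*, both known from endothelium, were higher (2.14 and 2.13 against 0.498 and 0.171 for *Flt1*). *Pecam1* had 0.288 and 0.132 against 0.550 and 0.0910.

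The 12 genes lowest against the limited sheath class held *Vit*, a matrix protein (0.393 and 0.274 against 4.21 and 3.51), the NADPH oxidase *Nox4* (0.0767 and 0.0189 against 1.29 and 0.864) and the thrombospondin *Thbs4* (0.0671 and 0.0283 against 1.05 and 1.27). *Abca6*, *Bmpr1b* and *Ntn4*, named above, were among them, with *Pax9*, *Lmo7*, *Lvrn*, *9630002D21Rik*, *A630012P03Rik* and *Gm46606*. All 4 genes of the sheath rule were lower too, which that rule fixes. None of the genes of these 2 groups was called lower against all other nuclei.

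The members also varied among themselves. With each nucleus thinned to 1000 UMIs, the variance over the mean of UMIs had a median of 1.05 in female and 1.04 in male members over 4668 genes. It was 11.3 and 12.7 for *Ptgds*, 12.8 and 7.12 for *Trpm3* and 4.76 and 3.76 for the collagen *Col25a1*. Others among the 12 most variable genes were the neuronal genes *Cntn5*, *Cntnap2*, *Fgf14*, *Kcnip4*, *Ctnna2* and *Kcnd2*, and *Malat1*, *Gm42418* and *Galntl6*. Single nuclei weighed on some of these: 1 male nucleus held 38.9% of all *Cntn5* UMIs of the members, against 6.66% of *Ptgds* UMIs in the top nucleus of that gene.

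Over the members of a library, some genes varied together. The correlations below (Pearson's r of log2(1 + UMIs per 10000) over 259 female and 328 male nuclei) are descriptions, since nuclei of 1 library share its RNA and depth, and the genes were picked after their values were seen. *Dpp4*, a peptidase of the cell surface, went with *Col25a1* (r = 0.53 in females, 0.53 in males), *Cldn11* (0.48 and 0.39) and *Cdh1* (0.42 and 0.42), and against *Slc6a20a* (-0.34 and -0.32). *Slc47a1* went with *Slc4a10*, a bicarbonate transporter (0.70 and 0.72), and neither followed *Dpp4* (0.08 and 0.04 for *Slc47a1*). *Ranbp3l* went with *Trpm3* (0.44 and 0.34), and *Lama1* against it (-0.34 and -0.44). *Bmp6* went with *Slc6a13* (0.43 and 0.21) and against *Cldn11* (-0.38 and -0.22).

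**Figure D4:**
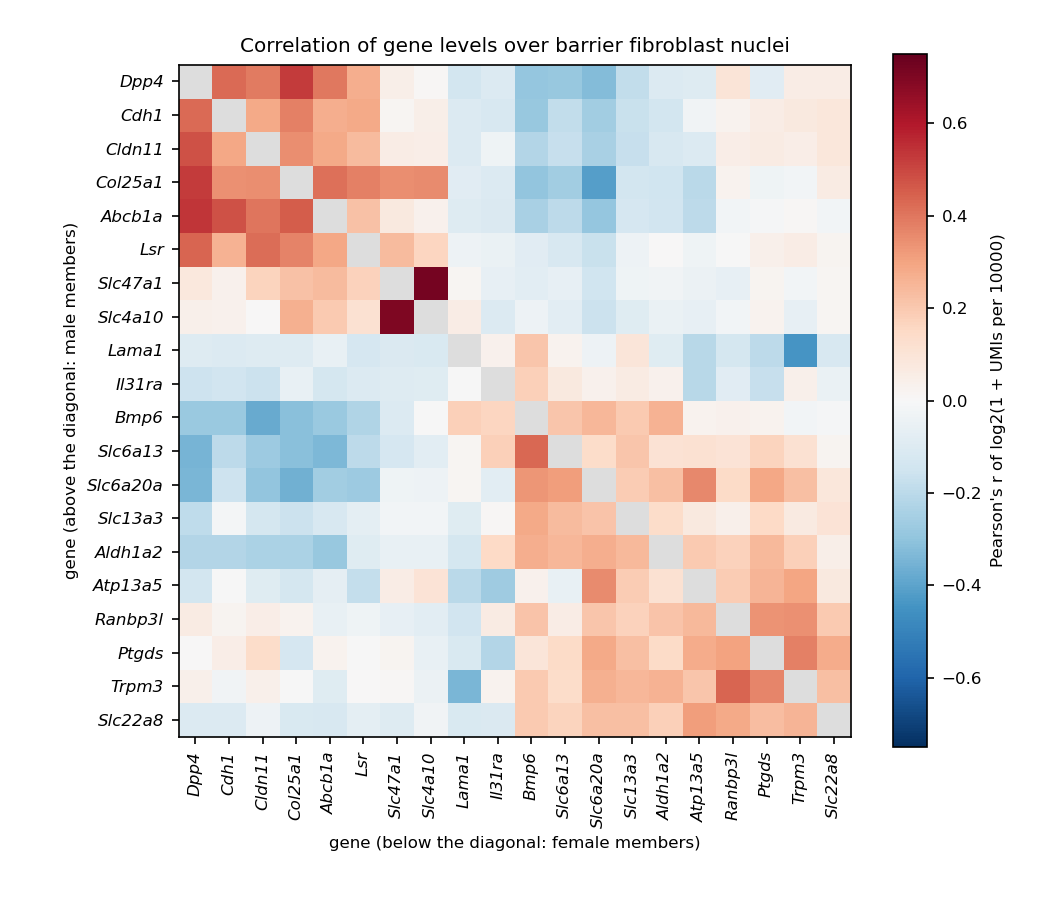
Pearson's r between gene levels (log2(1 + UMIs per 10000)) over the 259 female members (below the diagonal) and the 328 male members (above it); both axes list genes. A block of *Dpp4*, *Cdh1*, *Cldn11* and *Col25a1* and a pair of *Slc47a1* and *Slc4a10* (0.70 and 0.72) showed positive values in both libraries.

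Nuclei with at least 2 summed UMIs, and 5 per 10000, of *Dpp4*, *Cdh1* and *Cldn11* made up 15.4% of female members (40 nuclei, 11.3 to 20.4%) and 17.7% of male members (58 nuclei, 13.7 to 22.3%). These genes were chosen after seeing the data, so the values are a description with no test. *Prg4*, the lubricant proteoglycan of joints and serous surfaces, had 8.97 and 7.92 in these nuclei against 0.393 and 0.225 in the other members. *Fn1*, or fibronectin, had 16.8 and 17 against 1.49 and 1.04, so that 338 of 463 and 365 of 453 *Fn1* UMIs of the members lay in these nuclei. *Ptgds* had 105 and 92.3 against 47.6 and 55.4, and *Abcb1a*, the efflux pump P-glycoprotein, had 2.88 and 3.40 against 0.452 and 0.852. *Col25a1* had 4.51 and 6.29 against 1.49 and 0.852. In the other direction *Slc6a13* had 3.07 and 1.58 against 6.01 and 4.84, *Aldh1a2* 2.28 and 2.10 against 5.03 and 4.01, *Bmp6* 9.22 and 6.99 against 14.8 and 14.4, and *Lama1* 0.0991 and 0.0466 against 0.773 and 0.887. Of the other genes of the rule, which chose all of these nuclei, *Ranbp3l* had 37.9 and 30.4 against 29.3 and 29.9, and *Atp13a5* 7.58 and 7.22 against 6.82 and 6.90. *Slc6a20a* had 14.9 and 10.0 against 19.4 and 18.8, and *Slc13a3* 2.97 and 1.12 against 2.74 and 2.40. *Trpm3* had 252 and 220 against 266 and 237. The median depth was 3766.5 and 3092 UMIs in these nuclei against 3087 and 2618.5 in the others. Of these nuclei 13 female and 12 male ones also met the sheath fibroblast rule, and 2 female and 29 male ones the neuron rule. What these overlaps add to the values was not tested.

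A smaller set had at least 2 summed UMIs, and 5 per 10000, of *Slc47a1* and *Slc4a10*: 18 female (6.95%, 4.17 to 10.8) and 16 male nuclei (4.88%, 2.81 to 7.80). *Col25a1* had 10.0 and 13.4 in them against 1.14 and 1.10 in the other members, *Adamtsl3* 6.30 and 8.33 against 0.225 and 0.274, *Slc26a7* 2.55 and 3.41 against 0.129 and 0.111, and *Gpc5* 4.11 and 3.14 against 0.268 and 0.111. *Slc4a10*, which chose these nuclei, had 262 UMIs of 289 and 168 of 196 in them (23.9 and 22.9 against 0.289 and 0.284). *Slc6a20a* (14.1 and 9.29 against 19.0 and 17.6), *Ranbp3l* (20.9 and 28.3 against 32.2 and 30.2) and *Trpm3* (190 and 185 against 272 and 237) had smaller differences. These nuclei were deeper, with medians of 5871 and 4359.5 UMIs. Of them 8 female and 7 male ones met the sheath fibroblast rule, and 4 female and 6 male ones the neuron rule. The part of nuclei captured in pairs was not tested.

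The last comparison was between the sexes. A difference between female and male animals and one between their libraries cannot be told apart here. Of 7502 genes with 50 or more UMIs in members, 393 were 2-fold or more higher in male members (5.24%) and 153 in female members (2.04%), with a median log2 ratio of male over female of -0.03. These counts depended on the processing: they were 298 and 67 without members that met the rule of another class, and 215 and 49 with each nucleus thinned to 1000 UMIs. With no minimum of UMIs they were 1002 and 1063, with no excess on the male side. That set also holds genes of very few UMIs, so it is not like the 7502 genes. The genes of known sex linkage followed the labels. *Xist* had 1065 UMIs in female and 1 in male members, and *Uty*, *Eif2s3y*, *Ddx3y* and *Kdm5d* of the Y chromosome had 298, 122, 109 and 63 UMIs in male members and none in female ones.

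Few of the genes that were high in members differed 2-fold between the libraries, though each had to be high in both to be called. Of 286 genes that were called higher against all other nuclei and had 50 or more UMIs, 1 was 2-fold higher in male members (*Igfbp3*, 70 against 29 UMIs) and 3 were in female members (*Fam174b*, 68 against 34, *Adap2os*, 66 against 33, and *Pebp4*, 35 against 16). The log2 ratio of male over female was -0.12 (-0.21 to -0.03) for *Slc6a20a*, -0.05 (-0.12 to 0.03) for *Ranbp3l*, -0.38 (-0.56 to -0.20) for *Slc6a13* and 0.10 (0.05 to 0.15) for *Ptgds*. Several of these intervals do not include 0, but they cover counting error only, and with 1 library per sex the spread between animals is not known. *Slc6a20a*, *Ranbp3l* and *Slc6a13* are genes of the rule, whose limits were the same in both libraries. Their likeness between the sexes was thus partly set by the choice of members.

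The named genes that differed most, sex-linked ones apart, also differed in the same direction in all other nuclei, and many are known from neurons. *Dbh* and *Slc6a2*, genes of noradrenergic neurons, had 132 and 149 UMIs in male members against 7 and 18 in female ones. Their log2 ratios were 4.21 (3.13 to 5.56) and 3.03 (2.32 to 3.82) in members and 2.98 and 2.68 in all other nuclei. The serotonin receptor *Htr3a* (2.21 in members, 1.47 in other nuclei), *Ddah1*, the tubulins *Tubb2b* and *Tuba4a* and the neuronal gene *Nsg2* were also higher in males. *D130079A08Rik* was among the highest (3.0), but 63.0% of its UMIs in members lay in 1 male nucleus. On the female side *Prl*, the pituitary hormone prolactin, had 154 against 13 UMIs, with a log2 ratio of -3.59 (-4.53 to -2.77) in members and -3.89 in other nuclei. *Fabp4*, a lipid-binding protein of adipocytes and endothelium, had -3.41 and -2.65, with 19.6% of its UMIs in members in 1 female nucleus. *Grin2a*, a glutamate receptor subunit, had 103 UMIs in female and 2 in male members, a log2 ratio of -5.13 (-8.78 to -3.82) with the male sum set to the floor of 3 UMIs, and -3.93 in other nuclei. Its UMIs lay in 25 members, with 21.0% in 1 female nucleus, and members that met no other class's rule held only 3 female and 0 male UMIs, too few for a ratio. *Kcnd2*, *Caln1*, *Rims1*, *Olfm3* and *Anks1b*, all known from neurons, made up the rest. For each of these the top nucleus was a female one of 16382 UMIs, with 12.4%, 18.0%, 13.9%, 12.1% and 9.78% of their UMIs in members. Over the 393 genes higher in male members the median log2 ratio was 1.25 in members and 0.65 in other nuclei, and over the 153 higher in female members it was -1.33 and -0.54. The members' share of neuron rule nuclei (37 of 259 female, 131 of 328 male) and their neuron list level (10.4 and 14.1) moved in the same direction as the male genes, and their part in these differences was not tested.

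**Figure D5:**
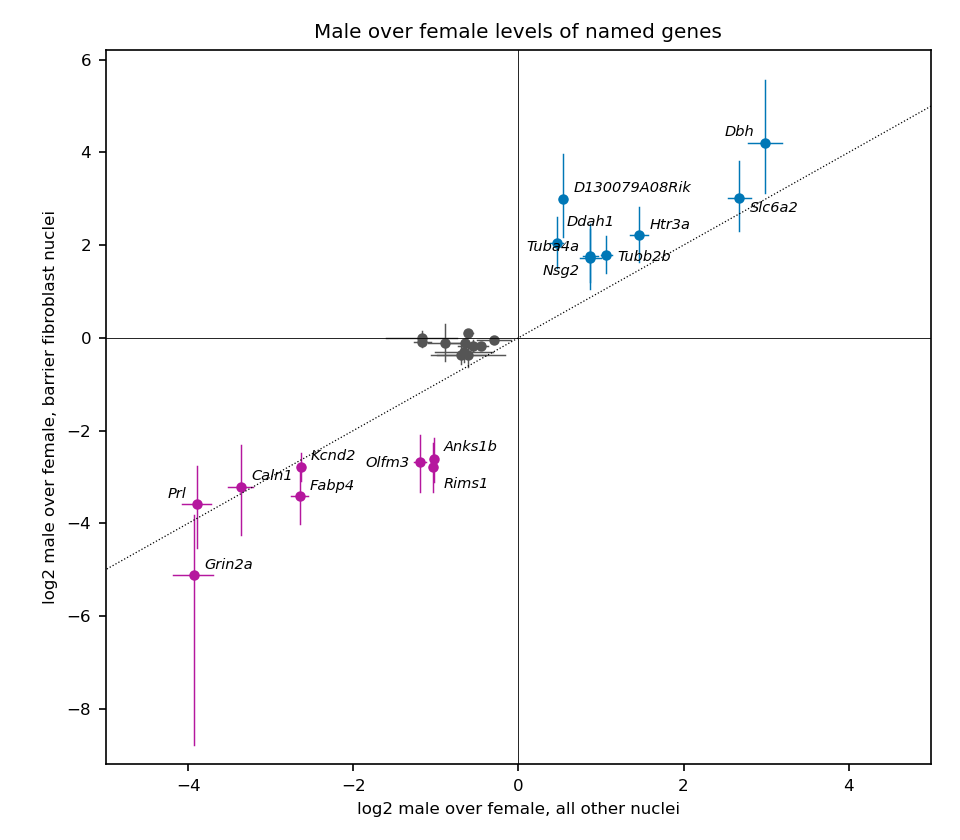
Log2 ratio of male over female levels of named genes in barrier fibroblast nuclei (y axis) against the same ratio in all other nuclei (x axis); lines are 95% counting intervals, the dotted line marks equal ratios, and the grey points are the 5 marker genes and 6 other genes named above. Genes higher in male members, such as *Dbh* (4.21 and 2.98), and in female members, such as *Prl* (-3.59 and -3.89), lay on the same side of 0 in the other nuclei. The 5 marker genes lay between -0.38 and 0.00 on the y axis, which the rule partly set, since its limits were the same in both libraries.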

How the data were processed

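The unit of the deposited matrix is counts, UMIs per gene and nucleus of both libraries together. The authors mapped reads with Cell Ranger 7.1.0 to mm10 with a transgene added, counted introns, kept barcodes with over 250 genes by a debris score, and pooled the libraries after evening out mapped reads, so depth is not that of all reads. The number after each barcode gave the library, and its sex was taken from the nuclei numbers that the study's text gives for each sex; no column of another series was used and no doublet caller was run here. The members and gene lists were chosen with earlier results of these data known. Levels are UMIs per 10000, with exact Poisson intervals; shares have Clopper-Pearson intervals and ratios conditional binomial intervals (95%). A list's value is the mean log2 ratio of both libraries, with sums floored at 3 UMIs. The calls were tested on simulated data, but no outcome of that is given here, so it adds no support to them. Named genes were the 25 highest against all other nuclei with 30 or more UMIs per library, the 15 highest and 12 lowest against sheath nuclei, up to 4 called genes and the most abundant gene of each of 24 lists, the 8 most different per sex with 100 or more UMIs, and the 12 most variable. Genes lower than in the limited sheath class, both subsets and the correlated genes were chosen after their values were seen. Python 3.11.15, NumPy 2.4.6, SciPy 1.17.1, pandas 2.3.3 and matplotlib 3.10.9 were used. A few genes that the rule names are not reported here.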

Additional observations from a re-analysis of the deposited data

How the results depend on the processing

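The share of members depended on the rule: it was 5.25% of female and 4.69% of male nuclei with at least 8 marker UMIs and 30 per 10000, 7.52% of male nuclei with 3 and 10, 9.14% and 7.55% among nuclei over 2000 UMIs, and 4.51% and 3.12% without members that met the rule of another class. In an alternative chosen after seeing the data, which kept those that met the neuron or sheath rule, it was 6.01% in females and 6.11% in males. Thinned to 1000 UMIs, the genes higher and lower numbered 148 and 115 against all other nuclei, 128 and 71 against sheath nuclei, and 215 and 49 for male and female members. With 2-fold in place of 4-fold, 852 and 1223 were higher and lower than in all other nuclei and 794 and 1108 than in sheath nuclei. Against the limited sheath class 156 were higher and 83 lower, and as a mean over nuclei 117 were lower than in sheath nuclei. Without a minimum of UMIs, 1002 genes were higher in male and 1063 in female members, and without members of another class 67 were higher in female ones. Under that last setting 4 ratios of male over female turned positive (*Mrc1* 0.52, *Tenm2* 0.74, *Gpc5* 1.24, *Grin2a* 0.30), of which *Mrc1* rested on 6 female and 7 male UMIs and *Grin2a* on 3 and 0, so that its value was set by the floor of 3 UMIs. So did *Gpc5* with the looser rule (1.74) and *Gm45321* against the limited sheath class (0.30, from 1 and 5 UMIs in members and 2 and 3 in sheath nuclei). The cause of these changes was not tested. Of 72 recomputed counts and shares 48 moved by less than 1.5-fold (counts) or less than their counting interval, and values stayed as near for 321 of 529 list medians, 2677 of 3956 ratios of named genes, 1114 of 1269 ratios of male over female and 7 of 10 marker levels. Genes of a few UMIs could not be called lower. Between the sexes no paired analysis was possible because each sex has 1 library.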
